A study of Homo sapiens with 4 samples.

Results

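The 10 genes described here are members of the NF-kB system, taken by name as its subunits, its inhibitors and genes listed as its feedback targets. They are NFKB1, RELA, NFKB2, RELB, NFKBIA, NFKBIE, TNFAIP3, BIRC2, BIRC3 and TRAF1, 10 of the 23004 gene names in the deposited files. The RNA came from BEAS-2B, a human bronchial epithelial line that was immortalized in culture. The cells were exposed to 100 µM formaldehyde for 48 h in 2 libraries and left untreated in 2 libraries, and the series title names the compound. Nothing in the labels says whether the replicates were separate cultures, so that a p-value here covers variation among these 4 libraries only, which may be technical.

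NF-kB is a family of dimeric transcription factors that bind short DNA sites called kB sites. In the canonical pathway IkB proteins hold dimers such as p50 with RelA in the cytoplasm until the IKK complex marks the IkB for destruction. In the alternative pathway the kinase NIK drives processing of p100 to p52, the partner of RelB. Many of the genes that NF-kB switches on, among them those of IkB proteins and of A20, in turn restrain it. In airway epithelium the system is known for driving cytokine and chemokine genes.

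Levels are in FPKM, fragments scaled to transcript length and to library depth, as deposited by the authors and summed here per gene name. Depth, worked out from the deposited coverage, came to 14.2 M and 22.2 M fragments in formaldehyde replicates 1 and 2, and to 16.8 M and 26.5 M in untreated replicates 1 and 2. A member was read from 103 to 2852 fragments in a library, the fewest for TRAF1, whose counting error at 95% confidence was then 19.3%. That error covers counting alone. Of the epithelial markers, KRT7, KRT8 and KRT18 were abundant, at 140 to 531 FPKM over the 4 libraries, whereas KRT5 and TP63 were listed at 0 in every library and CDH1 reached at most 0.631 FPKM. SFN, another epithelial gene, was at 75.998 and 57.04 FPKM with formaldehyde and 44.04 and 57.001 FPKM untreated. KRT7, KRT8 and KRT18 were higher in both formaldehyde libraries, and the list summed to 1416 and 1214 FPKM with formaldehyde, against 754 and 698 FPKM untreated. Endothelial markers (6 of 6) stayed under 0.1 FPKM in all libraries. Of 14 leukocyte markers, 8 were under 1 FPKM in all libraries, among them PTPRC at up to 0.0232 FPKM and CD3E and MS4A1 at 0. Others were present. CD68, a macrophage marker that other cells also express, was at 42.8 and 22.04 FPKM with formaldehyde, against 12.8 and 16.4 FPKM untreated, and CORO1A was at 4.75 and 4.02 FPKM with formaldehyde, against 1.53 and 2.69 FPKM untreated. Both were higher in each formaldehyde library than in either untreated one (limma unadjusted p = 0.0365 for CD68 and 0.0329 for CORO1A). Of all tested genes, 16.2% were so placed, and 1.93% were higher with an unadjusted p under 0.05. Neither gene passed over all genes (limma adjusted p = 0.9999 for each). CD14 was at 1.77 and 6.23 FPKM with formaldehyde and 3.75 and 11.98 FPKM untreated, and CD74 at 5.36 and 6.99 FPKM with formaldehyde and 2.5002 and 10.7 FPKM untreated. Of 9 fibroblast markers, 5 were under 1 FPKM in all libraries. COL1A1, PDGFRB and THY1 were not among them: COL1A1 was at 137 and 254 FPKM with formaldehyde, against 279 and 568 FPKM untreated, PDGFRB at 7.3997 and 22.2 FPKM with formaldehyde, against 21.8 and 29.97 FPKM untreated, and THY1 at 139 and 165 FPKM with formaldehyde, against 144 and 203 FPKM untreated.

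Sequences that match the kB site are shown first, because NF-kB is known to act on several of these genes through such sites. RefSeq promoter windows (build GRCh38.p14, 250 bases before to 50 bases after a start) were found for 8 of the 10 members, and RELB and NFKBIE were not in the table. The motif GGGNNNTTCC, a form of the kB site, was searched on both strands. It was present in a window of 5 of the 8 members, NFKB1, NFKB2, NFKBIA, TNFAIP3 and BIRC3, and in 7.83% of the 27305 genes with a window. A broader search with the NF-kB consensus motif, whose matches overlap those of the first, found the same 5 members and 13.3% of all genes. Genes with several starts have several windows and so more chances of a match. A match is a description of the letters and does not show binding. The 250 bases before the start are printed for 3 genes, on the strand of the gene, with matches to either motif in capitals.
TNFAIP3, chr6:137867009-137867258, plus strand: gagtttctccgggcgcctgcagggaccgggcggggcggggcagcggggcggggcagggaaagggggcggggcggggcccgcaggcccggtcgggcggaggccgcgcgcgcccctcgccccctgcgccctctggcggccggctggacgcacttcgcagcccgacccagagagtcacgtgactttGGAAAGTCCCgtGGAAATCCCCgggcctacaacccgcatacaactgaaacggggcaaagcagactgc
NFKBIA, chr14:35404750-35404999, minus strand: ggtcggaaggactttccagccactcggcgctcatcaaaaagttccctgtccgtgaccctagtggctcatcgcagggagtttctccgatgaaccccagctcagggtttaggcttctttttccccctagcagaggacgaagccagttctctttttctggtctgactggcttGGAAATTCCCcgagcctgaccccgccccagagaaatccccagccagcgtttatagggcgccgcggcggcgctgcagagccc
BIRC3, chr11:102317234-102317483, plus strand: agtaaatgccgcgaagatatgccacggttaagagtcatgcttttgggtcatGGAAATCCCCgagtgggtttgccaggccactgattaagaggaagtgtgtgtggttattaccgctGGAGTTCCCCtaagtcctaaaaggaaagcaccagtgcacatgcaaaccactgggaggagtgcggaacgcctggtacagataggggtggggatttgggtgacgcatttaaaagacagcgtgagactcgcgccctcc
The pair of sites in TNFAIP3 lies at positions -67 and -55 from the start of the gene, and the 1 site in NFKBIA at position -81. The TNFAIP3 and NFKBIA capitals and the first block in BIRC3 fit GGGNNNTTCC on the opposite strand, and the second block in BIRC3 fits the broader motif alone. For the precursor genes NFKB1 and NFKB2 the matches to GGGNNNTTCC are shown with 10 bases on each side, the match in capitals.
NFKB1, chr4:102501300-102501329, plus strand: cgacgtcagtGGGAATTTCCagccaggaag
NFKB2, chr10:102394462-102394491, plus strand: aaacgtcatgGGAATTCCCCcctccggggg
NFKB2, chr10:102394490-102394519, plus strand: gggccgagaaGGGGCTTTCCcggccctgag
NFKB2, chr10:102395674-102395703, plus strand: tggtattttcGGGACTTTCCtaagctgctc
The first NFKB2 site fits on the opposite strand and the others on the strand of the gene.

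The comparison asks whether these genes differ between cells exposed to formaldehyde and untreated cells. By the sign of the log2 fold change, 9 of the 10 members were higher with formaldehyde and 1, NFKBIA, was lower, where 6831 of all 12407 tested genes were higher and 5576 lower. The median log2 fold change was 0.39, beside 0.03 over all of them. No member passed the test, limma on log2(FPKM + 1) with Benjamini-Hochberg adjustment over all genes (limma adjusted p = 0.9999 for each). By that test 10 genes were called higher and 9 lower, 0.0806% and 0.0725% of the 12407. With an unadjusted p under 0.05, 1 member was higher, NFKBIE, and 0 were lower, where 1.93% and 0.838% of all genes were so. The formaldehyde pair lay wholly above the untreated pair in 3 members, NFKB2, RELB and NFKBIE, where 16.2% of all genes did, and below them in 0, where 10.7% did. The members' median dropped to 0.16 when formaldehyde replicate 1 was left out, and to 0.23 when untreated replicate 2 was. In RNA from a whole culture, a change in the number of expressing cells and a change in RNA per cell cannot be told apart.

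**Figure D1:**
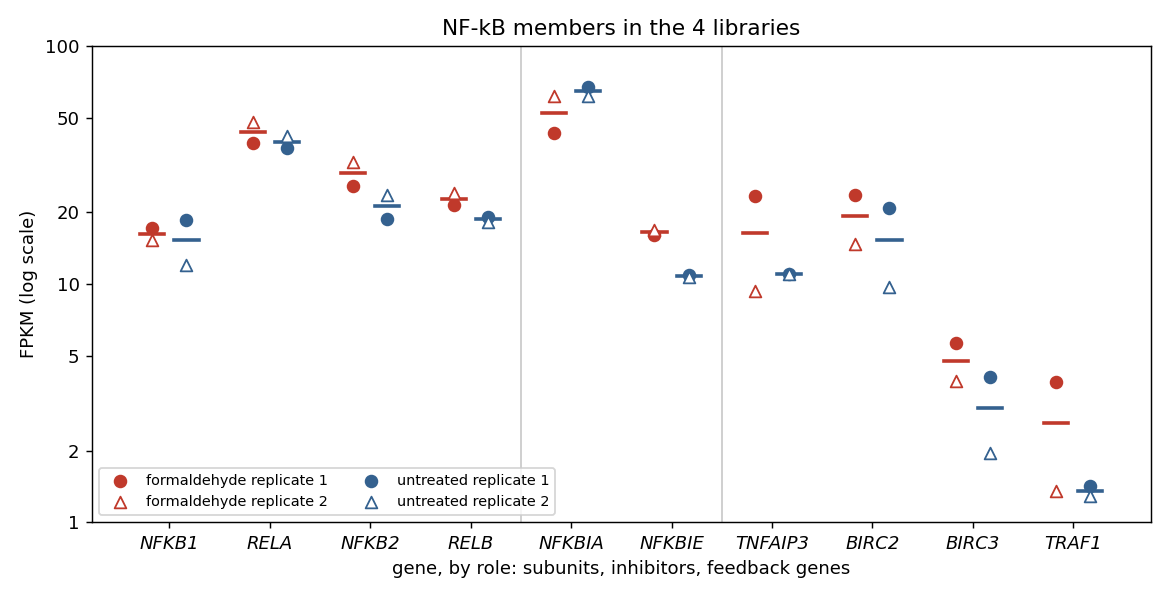
FPKM of the 10 members (log axis) in each library, formaldehyde in red left of untreated in blue, with replicate 1 as a filled circle, replicate 2 as an open triangle and the mean of each pair as a bar. NFKBIE, NFKB2 and RELB have both red points above both blue points, and in TNFAIP3 and TRAF1 formaldehyde replicate 1 stands apart from the other 3 libraries.

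Among the subunits of the canonical pathway, the libraries of both groups overlapped. RELA on chromosome 11 (hg19, 65421067 to 65430443) encodes p65, the subunit that carries the activation domain of the classical dimer. Its level was 39.0 and 48.0 FPKM in formaldehyde replicates 1 and 2, against 37.3 and 41.8 FPKM in untreated replicates 1 and 2. The formaldehyde value of replicate 1 lay between the untreated values, and the log2 fold change was 0.13 ± 0.21 (SE). NFKB1 on chromosome 4 (103422486 to 103538459) encodes p105, the precursor of p50. Its level was 17.2 and 15.3 FPKM with formaldehyde and 18.7 and 12.03 FPKM untreated. Both formaldehyde values lay inside the untreated range, with a log2 fold change of 0.10 ± 0.27 (SE). Without untreated replicate 2 the log2 fold change of NFKB1 was -0.19, and that of RELA was -0.018 without formaldehyde replicate 2.

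In the subunits of the alternative pathway, NFKB2 and RELB, the groups lay apart with formaldehyde on the higher side, as in 16.2% of all genes. The ratios of NFKB2 to NFKB1 and of RELB to RELA, given below, overlapped between the groups. NFKB2 on chromosome 10 (104154339 to 104162281) encodes p100, which acts as an inhibitor until it is cut to p52. Its level was 25.9 and 32.4 FPKM with formaldehyde, against 18.8 and 23.7 FPKM untreated. The lowest formaldehyde value exceeded the highest untreated one by little, and the means were 29.1 ± 4.63 FPKM with formaldehyde and 21.3 ± 3.43 FPKM untreated (SD, n = 2 each), 1.37-fold apart. The log2 fold change was 0.44 ± 0.23 (SE), and from 0.28 to 0.59 with 1 library left out. RELB on chromosome 19 (45504707 to 45541456) encodes the partner of p52. Its level was 21.5 and 24.2 FPKM with formaldehyde and 19.1 and 18.3 FPKM untreated. The groups did not overlap, but the deposited confidence bounds of formaldehyde replicate 1, 19.8 to 23.2 FPKM, overlapped those of untreated replicate 1, 17.6 to 20.6 FPKM. Its log2 fold change was 0.27 ± 0.19 (SE), from 0.19 to 0.36 with 1 library left out.

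The 4 subunit genes together summed to 104 and 120 FPKM with formaldehyde, against 93.9 and 95.8 FPKM untreated. NFKB2 made up 25.0% and 27.0% of that sum with formaldehyde and 20.1% and 24.7% untreated, and RELA 37.6% and 40.0% with formaldehyde against 39.7% and 43.6% untreated. The share of NFKB2 was thus higher in both formaldehyde libraries, and by less than 1 percentage point between formaldehyde replicate 1 and untreated replicate 2. NFKB1 made up 16.6% and 12.8% with formaldehyde and 19.9% and 12.6% untreated, a difference between replicates larger than that between the groups.

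The deposited transcripts of NFKB1 and NFKB2 bear on how these sums are made. NFKB1 has 2 listed transcripts of 4085 and 4082 nt that differ by 3 nt. The longer one held nearly all of the gene's FPKM in formaldehyde replicate 1 and 69.2% in replicate 2, against 59.5% and 35.9% in untreated replicates 1 and 2. With 3 nt between them few reads can tell them apart, and the log2 fold change of NFKB1 was 0.85 when its highest transcript was used in place of the sum. For NFKB2 the transcript of 3042 nt held 85.8% and 94.3% with formaldehyde and 79.5% and 89.8% untreated. A further transcript with no gene name shares 2939 exon bases with NFKB2 on the same strand and was left out of the sum. It stood at 3.82 and 1.05 FPKM with formaldehyde and at 3.69 and 1.89 FPKM untreated. With it NFKB2 stood at 29.7 and 33.5 FPKM with formaldehyde, against 22.5 and 25.6 FPKM untreated, with the groups still apart (log2 fold change 0.38, an alternative added after seeing the data).

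**Figure D2:**
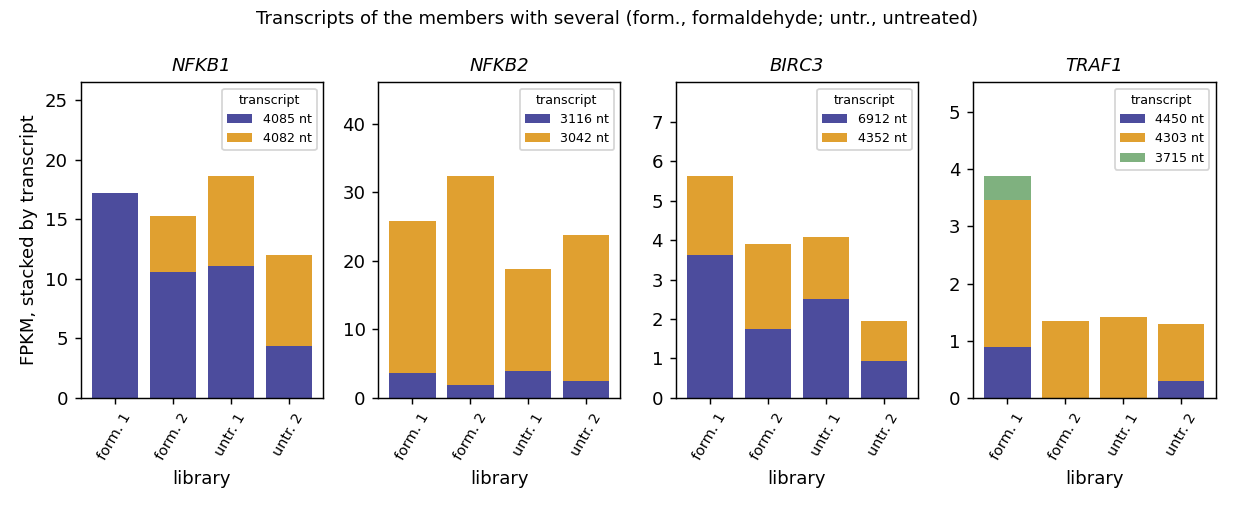
FPKM of NFKB1, NFKB2, BIRC3 and TRAF1 in each library, stacked by the deposited transcripts, which the keys name by length. The split of NFKB1 moves from library to library while the sum stays between 12.03 and 18.7 FPKM, and the 3042 nt transcript of NFKB2 and the 4303 nt transcript of TRAF1 hold most of the gene in each library.

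The IkB genes among the members differed in direction. NFKBIE on chromosome 6 (44225903 to 44233525) encodes IkB epsilon, an inhibitor made in response to NF-kB that acts with a delay. Its level was 16.1 and 16.9 FPKM with formaldehyde, against 10.97 and 10.7 FPKM untreated. Replicates were close within each group and the groups lay apart, and the deposited confidence bounds, 14.7 FPKM at the lowest with formaldehyde and 12.02 FPKM at the highest untreated, did not overlap either. The means were 16.5 ± 0.616 FPKM with formaldehyde and 10.8 ± 0.193 FPKM untreated (SD, n = 2 each), 1.52-fold apart. The log2 fold change was 0.56 ± 0.19 (SE), with a limma unadjusted p of 0.0292, and it lay between 0.53 and 0.60 when 1 library was left out. NFKBIE thus had the smallest unadjusted p of the 10 and the narrowest such range, and it did not pass over all genes.

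NFKBIA on chromosome 14 (35870716 to 35873960) encodes IkB alpha, the fast feedback inhibitor of RelA dimers. Its level was 43.1 and 61.8 FPKM with formaldehyde, against 67.5 and 61.4 FPKM untreated. Formaldehyde replicate 1 was the low library and the other 3 lay close together. The log2 fold change was -0.31 ± 0.25 (SE), and without formaldehyde replicate 1 it was -0.06. When FPKM were rescaled, by median ratios, by their sums or by quantiles, NFKBIA was lower in each formaldehyde library than in either untreated one.

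Ratios of 2 genes within a library do not depend on the scaling of the library. NFKBIE stood at 0.373 and 0.274 times NFKBIA in formaldehyde replicates 1 and 2, against 0.162 and 0.174 times in the untreated libraries. The ratio was higher in both formaldehyde libraries (exact permutation test, two-sided, p = 0.333, the smallest that 2 libraries against 2 allow). NFKB2 stood at 1.51 and 2.12 times NFKB1 with formaldehyde and at 1.01 and 1.97 times untreated, and RELB at 0.552 and 0.504 times RELA with formaldehyde against 0.512 and 0.437 times untreated. Both of these ratios overlapped between the groups (exact permutation test, two-sided, p = 0.667 each). BIRC3 stood at 0.237 and 0.264 times BIRC2 with formaldehyde, above 0.195 and 0.202 times untreated (exact permutation test, two-sided, p = 0.333).

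**Figure D3:**
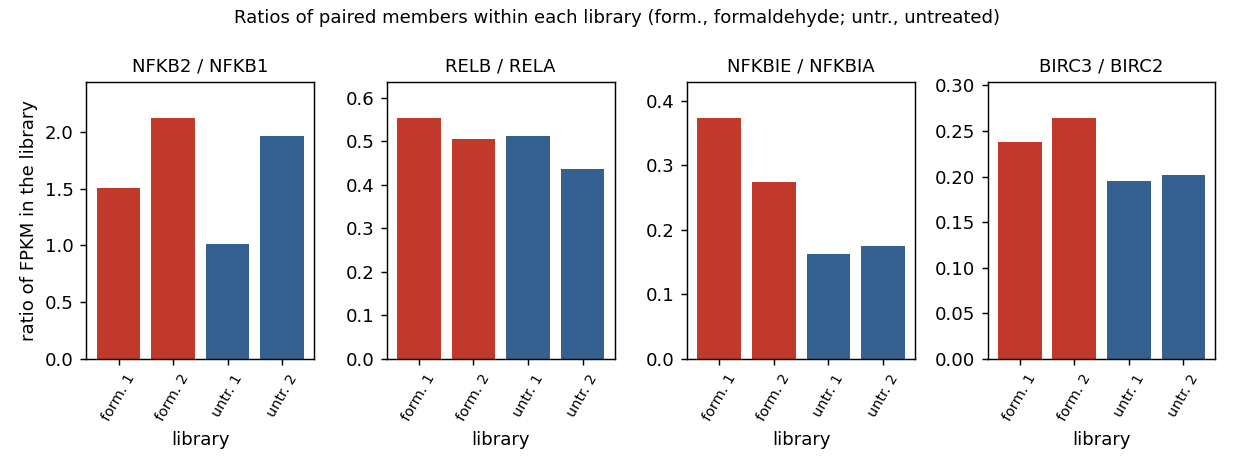
Ratio of the FPKM of paired members within each library, with the 2 formaldehyde libraries in red left of the 2 untreated libraries in blue. NFKBIE over NFKBIA and BIRC3 over BIRC2 were higher in both formaldehyde libraries, and the other ratios overlapped.

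Of the feedback genes of the receptor complexes, TNFAIP3 and TRAF1 were high in formaldehyde replicate 1 alone. BIRC2 and BIRC3 were higher in replicate 1 than in replicate 2 of both groups. TNFAIP3 on chromosome 6 (138188581 to 138204449) encodes A20, a ubiquitin-editing enzyme that shuts down signalling from TNF and interleukin-1 receptors. Its level was 23.4 and 9.37 FPKM in formaldehyde replicates 1 and 2, against 11.01 and 11.05 FPKM untreated. Formaldehyde replicate 1 stood above the untreated libraries and replicate 2 below them. The deposited confidence bounds of replicate 2, 8.74 to 10.001 FPKM, did not reach those of the untreated libraries, 10.2 to 11.8 FPKM in all. Its log2 fold change, 0.40 ± 0.43 (SE) over all 4 libraries, was -0.21 once formaldehyde replicate 1 was dropped and 1.02 once formaldehyde replicate 2 was.

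TRAF1 on chromosome 9 (123664671 to 123691451) encodes an adaptor of TNF receptors that is itself induced by NF-kB, and it was the lowest member. Its level was 3.89 and 1.35 FPKM with formaldehyde and 1.423 and 1.289 FPKM untreated. Only formaldehyde replicate 1 stood apart, and the log2 fold change of 0.53 ± 0.40 (SE) became -0.0027 without it. TRAF1 is best known from lymphoid cells, and the leukocyte marker list summed to 58.2 and 40.5 FPKM with formaldehyde and to 21.5 and 43.2 FPKM untreated. In formaldehyde replicate 1, where TRAF1 was high, CD68 (42.8 FPKM) and CORO1A (4.75 FPKM) were also at their highest of the 4 libraries. CD14 (1.77 FPKM) was at its lowest of the 4 in that library, and CD74 (5.36 FPKM) was neither at its highest nor at its lowest. LAPTM5, another leukocyte marker, was at 2.35 FPKM there, against 0.31 FPKM in formaldehyde replicate 2 and 0.292 and 0.13 FPKM untreated, while PTPRC, the common leukocyte antigen, was listed at 0. The lymphocyte markers of the list, CD3E, CD3D, MS4A1, CD79A and NKG7, were also listed at 0 in formaldehyde replicate 1. Most of the list's sum in that library was CD68. The part of cells with leukocyte markers in the values of TRAF1 was not tested.

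BIRC2 and BIRC3 are neighbours on chromosome 11 (102217966 to 102249401 and 102188181 to 102210135). They encode cIAP1 and cIAP2, ubiquitin ligases that act on RIPK1 at the TNF receptor and keep the alternative pathway off by marking NIK for destruction. BIRC2 was at 23.7 and 14.8 FPKM with formaldehyde and at 20.9 and 9.69 FPKM untreated. Replicate 1 was the high library of both groups, so that the groups overlapped, and the log2 fold change was 0.37 ± 0.43 (SE), or -0.15 without untreated replicate 2. BIRC3 was at 5.63 and 3.9004 FPKM with formaldehyde, against 4.07 and 1.95 FPKM untreated. Formaldehyde replicate 2 lay just under untreated replicate 1, and the log2 fold change of 0.56 ± 0.35 (SE) stayed above 0 with any library left out, from 0.17 to 0.95. The BIRC3 transcript of 6912 nt held 64.4% and 44.7% of the gene with formaldehyde and 61.8% and 47.6% untreated.

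Formaldehyde replicate 1 held the highest value of 4 members, TNFAIP3, BIRC2, BIRC3 and TRAF1, and replicate 2 that of NFKB2, RELB, RELA and NFKBIE. In the list of nuclear and small RNA genes, of which 7 were tested, the median stood 0.68 above the untreated mean in formaldehyde replicate 1 and at -0.38 in replicate 2 on the log2 scale. The 12 genes of that list found in the files summed to 726 and 420 FPKM with formaldehyde and to 333 and 791 FPKM untreated. By that sum untreated replicate 2 was high as well. Most of the sum was NEAT1, at 485 and 335 FPKM with formaldehyde and 218 and 596 FPKM untreated. RMRP, RPPH1 and RNU12 were not high in untreated replicate 2. RMRP was at 56.9 and 4.33 FPKM with formaldehyde and 26.2 and 14.5 FPKM untreated. MALAT1 was at 38.7 and 38.5 FPKM with formaldehyde and 27.2 and 92.5 FPKM untreated, and SNHG12 at 34.7 and 20.1 FPKM with formaldehyde and 17.02 and 26.5 FPKM untreated. RPPH1 was at 11.7 and 0.976 FPKM with formaldehyde and 8.18 and 6.83 FPKM untreated, and RNU12 at 65.8 FPKM and listed at 0 with formaldehyde and at 24.8 and 11.8 FPKM untreated. The part of such a difference between libraries in the values of the 4 feedback genes was not tested.

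**Figure D4:**
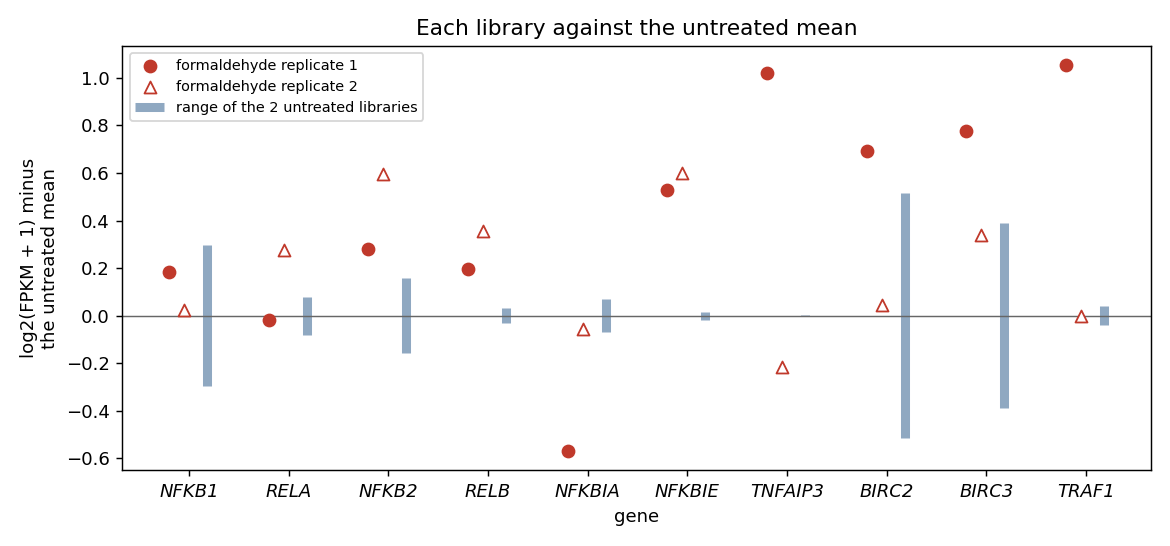
Difference of each formaldehyde library from the untreated mean on the log2(FPKM + 1) scale for each member, with replicate 1 as a filled circle and replicate 2 as an open triangle, and the range of the 2 untreated libraries as a blue bar (too narrow to see for TNFAIP3). NFKBIE lies 0.53 and 0.60 above the mean, while TNFAIP3 lies 1.02 above it in replicate 1 and at -0.21 in replicate 2.

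FPKM is scaled to length, so that levels can be ordered between genes. With formaldehyde the order of the mean level was NFKBIA, RELA, NFKB2, RELB, BIRC2, NFKBIE, TNFAIP3, NFKB1, BIRC3 and TRAF1, with 52.4 ± 13.3 FPKM at the top and 2.62 ± 1.79 FPKM at the end (SD, n = 2 each). In untreated cells it was NFKBIA, RELA, NFKB2, RELB, NFKB1, BIRC2, TNFAIP3, NFKBIE, BIRC3 and TRAF1, with 64.4 ± 4.35 and 1.36 ± 0.0951 FPKM at the ends (SD, n = 2 each). The library values of neighbours overlapped from RELB to NFKB1 in formaldehyde cells, and from NFKB2 to TNFAIP3 in untreated cells. NFKBIA and RELA, the top pair, overlapped with formaldehyde and lay apart in untreated cells. NFKB2, BIRC3 and TRAF1 lay apart from the gene below or above them in formaldehyde cells, as did NFKBIE, BIRC3 and TRAF1 in untreated cells.

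The other genes of the pathway were taken in 5 lists, and 0 genes of any list passed over all genes by limma. Their counts by sign stand beside 6831 higher and 5576 lower of all 12407 tested genes, and their counts at an unadjusted p under 0.05 beside 1.93% higher and 0.838% lower. Of the 7 other subunits and IkB proteins, 3 were higher by log2 fold change and 4 lower, with a median log2 fold change of -0.05, and 0 had an unadjusted p under 0.05. The groups lay apart upward in 1 of the 7, NFKBIB, and downward in 2, NFKBIZ and REL, beside 16.2% and 10.7% of all genes. NFKBIB, the gene of IkB beta, was at 51.7 and 70.5 FPKM with formaldehyde, against 41.7 and 46.4 FPKM untreated. It thus lay apart upward, as NFKBIE did. NFKBIZ, a nuclear IkB protein that is itself a target of NF-kB, was at 17.2 and 16.6 FPKM with formaldehyde against 17.9 and 46.1 FPKM untreated, with untreated replicate 2 the high library. BCL3, the nuclear partner of p50 and p52, was at 8.76 and 33.4 FPKM with formaldehyde against 22.6 and 40.3 FPKM untreated, and REL, the gene of c-Rel, at 2.11 and 2.19 FPKM with formaldehyde against 2.76 and 2.51 FPKM untreated. The log2 fold changes were 0.45 ± 0.24 for NFKBIB, -0.74 ± 0.46 for NFKBIZ, -0.77 ± 0.66 for BCL3 and -0.21 ± 0.22 for REL (SE). Leaving out 1 library put BCL3 at 0.14 (formaldehyde replicate 1), NFKBIZ at -0.079 (untreated replicate 2) and NFKBIB at 0.23 (formaldehyde replicate 2).

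Of 13 genes of the IKK complex and its upstream kinases, 8 were higher and 5 lower by log2 fold change, with a median log2 fold change of 0.09. MAP3K8, the kinase that p105 binds and holds inactive, was the 1 gene with an unadjusted p under 0.05. It stood at 2.002 and 3.88 FPKM with formaldehyde, against 6.50 and 8.499 FPKM untreated, so that formaldehyde lay wholly below untreated. Its log2 fold change was -1.14 ± 0.32 (SE). MAP3K14, the gene of NIK, was at 5.71 and 6.07 FPKM with formaldehyde and 5.54 and 8.92 FPKM untreated. IKBKB, the catalytic subunit IKK beta, was at 12.1 and 11.8 FPKM with formaldehyde and 9.79 and 10.8 FPKM untreated. TANK, an adaptor of the kinases TBK1 and IKK epsilon, was at 13.2 and 9.36 FPKM with formaldehyde and 18.96 and 11.6 FPKM untreated. The groups were apart for IKBKB and overlapped for MAP3K14 and TANK. Over the 13 genes the groups lay apart upward in 1 and downward in 1, beside 16.2% and 10.7% of all genes.

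Of 30 genes of receptors and adaptors, 24 were tested, 16 higher and 8 lower by log2 fold change, with a median log2 fold change of 0.12. An unadjusted p under 0.05 was found for 2, both higher. TNFRSF10A, a death receptor for TRAIL, was at 12.7 and 9.14 FPKM with formaldehyde, against 4.92 and 5.89 FPKM untreated, a log2 fold change of 0.88 ± 0.24 (SE). IRAK1, the kinase of the interleukin-1 and Toll-like receptors, was at 135 and 108 FPKM with formaldehyde, against 82.3 and 62.9 FPKM untreated, a log2 fold change of 0.74 ± 0.25 (SE). TNFRSF10B, the other TRAIL death receptor, was at 62.7 and 46.5 FPKM with formaldehyde against 34.6 and 38.5 FPKM untreated. TNFRSF12A, the receptor of TWEAK, which feeds the alternative pathway, was at 336 and 168 FPKM with formaldehyde against 201 and 121 FPKM untreated. The groups lay apart for TNFRSF10A, TNFRSF10B and IRAK1 and overlapped for TNFRSF12A. Over the list they lay apart upward in 4 of the 24 tested and downward in 3, beside 16.2% and 10.7% of all genes.

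Of the 20 tested genes of the list of ubiquitin genes and negative regulators, 17 were higher and 3 lower by log2 fold change. Their median log2 fold change was 0.20. Not all of them restrain NF-kB, as the list also holds RBCK1, RNF31 and SHARPIN of the linear ubiquitin ligase, and UBE2N and UBE2V1. The groups lay apart upward in 7 of the 20 and downward in 0, beside 16.2% and 10.7% of all genes. PDLIM2, a ubiquitin ligase of nuclear RelA, was at 17.7 and 14.4 FPKM with formaldehyde, against 9.497 and 9.748 FPKM untreated, and was the 1 gene with an unadjusted p under 0.05 (log2 fold change 0.68 ± 0.20, SE). RBCK1, a subunit of the linear ubiquitin ligase, was at 60.5 and 68.9 FPKM with formaldehyde against 44.5 and 58.1 FPKM untreated, and TRAFD1, a regulator of TRAF signalling, at 17.4 and 17.7 FPKM with formaldehyde against 15.9 and 13.5 FPKM untreated. TNIP1, the partner of A20, was at 104 and 168 FPKM with formaldehyde against 105 and 104 FPKM untreated, with formaldehyde replicate 2 alone high. The log2 fold change of TNIP1 was -0.013 without that library. Leaving out untreated replicate 1 or 2 put the list's median at 0.31 or 0.07.

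The known targets of NF-kB outside the members did not share a direction. Of 48 listed, 41 were tested, with 23 higher and 18 lower by log2 fold change and a median of 0.08. The groups lay apart upward in 11 and downward in 8, beside 16.2% and 10.7% of all genes. An unadjusted p under 0.05 was found for 5 that were higher and 3 that were lower, beside 1.93% and 0.838% of all genes. CSF2, the gene of the cytokine GM-CSF, was at 87.7 and 49.4 FPKM with formaldehyde, against 15.2 and 11.4 FPKM untreated, and IL1B, the gene of interleukin-1 beta, at 56.1 and 50.5 FPKM with formaldehyde against 20.6 and 16.6 FPKM untreated. The log2 fold change was 2.24 ± 0.34 for CSF2 and 1.47 ± 0.21 for IL1B (SE), and neither passed (limma adjusted p = 0.4137 for CSF2 and 0.3493 for IL1B). With the replicate number as a block CSF2 passed (limma adjusted p = 0.0395). BCL2L1, the gene of the survival protein BCL-XL, was at 83.9 and 71.1 FPKM with formaldehyde and 48.7 and 46.1 FPKM untreated. CXCL6, a chemokine for neutrophils, was at 1.74 and 3.12 FPKM with formaldehyde, against 8.84 and 5.41 FPKM untreated. Some fast-responding genes of the list (named after their values were seen) were high in untreated replicate 2 alone. IER2 was at 47.5 and 55.3 FPKM with formaldehyde and 22.1 and 498 FPKM untreated, and GADD45B at 31.8 and 46.9 FPKM with formaldehyde and 36.7 and 178 FPKM untreated. With 1 library left out the medians of the lists ran from 0.16 to 0.40 for the members. They ran from -0.22 to 0.12 for the other subunits and IkB proteins, and from -0.0044 to 0.14 for the kinases. The ranges were 0.075 to 0.14 for the receptors, 0.07 to 0.31 for the ubiquitin genes and negative regulators and -0.028 to 0.20 for the targets.

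**Figure D5:**
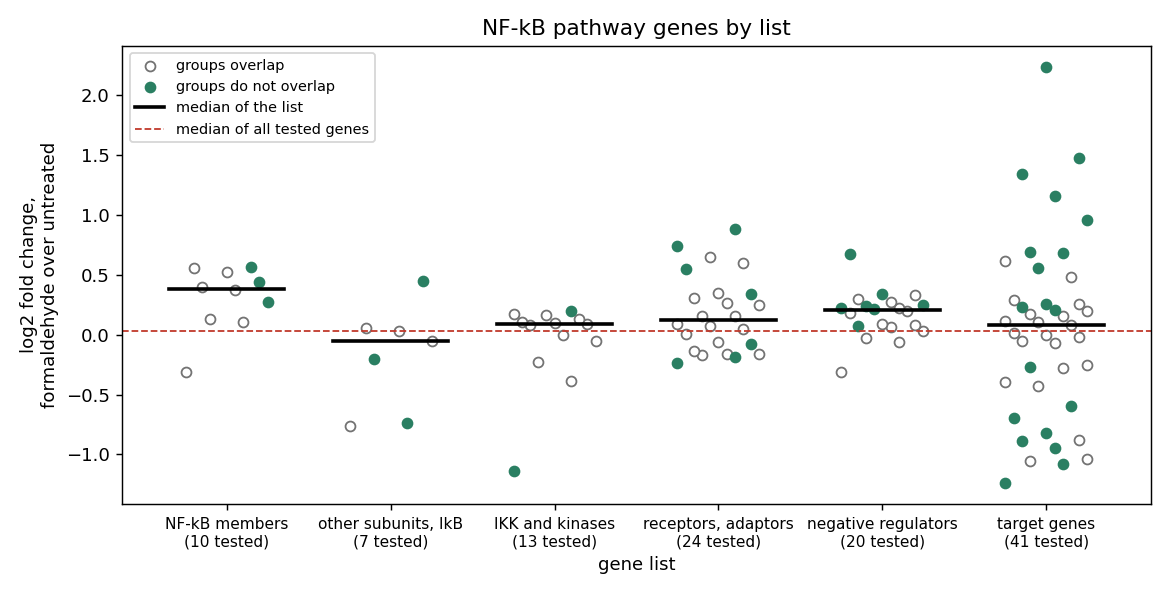
Log2 fold change (formaldehyde over untreated) of each tested gene by list, filled where the groups do not overlap, with the median of each list as a black bar and that of all tested genes as a dashed line at 0.03. The members' median stands at 0.39 and those of the other lists between -0.05 and 0.20, and the target genes spread on both sides of 0. The list marked negative regulators also holds ubiquitin genes with other roles.

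Likeness to the members was measured as the Euclidean distance, over the 4 libraries, between a gene's centred log2(FPKM + 1) values and the mean centred values of the 10 members. That mean profile stood at 0.26 and 0.04 in formaldehyde replicates 1 and 2, and at -0.04 and -0.26 in untreated replicates 1 and 2. Of the 105 other tested pathway genes, IRAK2, TRAF3 and MYD88 lay closest, at distances of 0.15, 0.16 and 0.18. IRAK2, a kinase of the interleukin-1 receptor complex, was at 3.24 and 2.87 FPKM with formaldehyde and 2.68 and 1.78 FPKM untreated. TRAF3, the adaptor through which cIAP ligases reach NIK, was at 9.11 and 7.39 FPKM with formaldehyde against 7.86 and 6.72 FPKM untreated, and MYD88, the adaptor of Toll-like receptors, at 15.8 and 12.4 FPKM with formaldehyde against 13.6 and 9.71 FPKM untreated. With 4 libraries such a distance is a description of these values only.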

How the data were processed

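Total RNA of BEAS-2B cells was sequenced on an Illumina platform, per the labels. The submitters' processing notes name Cufflinks 2.0.2, STAR 2.5.2 and FastQC 0.10.0, and the builds hg19 and GRCh37; the strand setting is not given in the sources used here, so that overlapping antisense reads cannot be told apart. The authors deposited FPKM with confidence bounds for 40255 transcripts per library. Those of 894 transcripts with no gene name (1.07% to 1.31% of FPKM) were left out, and the others summed per gene name. Depth was recovered from the deposited coverage and bounds (read length 51 nt). The 12407 genes with a mean of at least 1 FPKM were tested on log2(FPKM + 1), which understates changes of low genes, with limma 3.58.1 in R 4.3.3 (eBayes with trend, two-sided, Benjamini-Hochberg over all genes, threshold 0.05). The test was checked on simulated data with changes larger than those of the members, so that the check does not cover changes of their size.

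The members and the gene lists were chosen with earlier results of these data known. Named genes are all members, up to 4 genes of each list with the largest absolute moderated t, and the 3 closest in profile. Other marker genes were named after their values were seen. Lists are described by counts and medians, with no set test. Of the 18 nuclear and small RNA genes, 12 were found in the files. Alternatives changed the pseudocount, the filter, the scaling, the transcript used, the variance model, the replicate block and the libraries. Ratios used scipy 1.17.1 in Python 3.11.15 and figures matplotlib 3.10.9.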

Additional observations from a re-analysis of the deposited data

How the results depend on the processing

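The count of members passing the test was 0 in each direction under every alternative run, and 3 members had groups that lay apart upward in every alternative that kept all 4 libraries. The counts over all genes, 10 higher and 9 lower, were 0 and 0 with no filter on low values, and 1 and 0 with genes of at least 300 nt. With 1 library left out they ran from 3 to 44 higher and from 10 to 49 lower, and the members' median ran from 0.16 to 0.40. With a library left out, the lone sample of a group is taken to vary like the other group. The log2 fold change turned in sign among those fits, from -0.21 to 1.02 for TNFAIP3, -0.0027 to 1.05 for TRAF1, -0.018 to 0.27 for RELA, -0.19 to 0.40 for NFKB1, -0.15 to 0.89 for BIRC2, -1.67 to 0.14 for BCL3, -0.013 to 0.68 for TNIP1 and -0.53 to 0.074 for MAP3K14. With the highest transcript of each gene IKBKB stood at -0.14. With 2 libraries a group, values near the spread between replicates cannot be called, and TRAF1 is also limited by its depth.

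The labels do not say what a shared replicate number stands for, and 2 pairs are too few to show that the numbers pair the libraries. Deviations from the group means correlated at r = 0.25 across 12407 genes between same-numbered libraries, and 6 of 10 members deviated the same way. With the replicate number as a block, 14 genes were higher and 15 lower, the members' median stayed at 0.39 with 0 members called, NFKBIE had a limma adjusted p = 0.588, and CSF2 passed (limma adjusted p = 0.0395).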
